A study of Fukomys damarensis and Heterocephalus glaber and Mus musculus with 160 samples.

Results

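The urea cycle genes Cps1, Ass1 and Arg1 were examined in the mouse, in every peak list of 3 histone marks from liver and heart. Each gene was represented by a fixed window of the GRCm38 genome: chr1:67110000-67235000 for Cps1, chr2:31460000-31525000 for Ass1 and chr10:24910000-24935000 for Arg1. All peaks overlapping a window were taken, which gave 370 of the 1711588 peaks in the 29 mouse lists. The Cps1 window held 95 of them, the Ass1 window 212 and the Arg1 window 63. Liver lists gave 323 of the peaks and heart lists gave 47.

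The series measured histone marks in liver and heart of mole-rats, the guinea pig and the mouse by chromatin immunoprecipitation and sequencing (ChIP-seq), in which an antibody recovers DNA bound to a modified histone. Of its 160 samples 116 had a peak list, and 29 of those were mouse histone lists. All mice were adult, 2 months old, male, wild-type C57BL/6J animals. Liver H3K4me3, H3K27ac and H3K4me1 were each measured in the same 4 animals (85920, 85921, 85923 and 85924). Heart had 6 H3K4me3 lists, 6 H3K27ac lists and 5 H3K4me1 lists from other animals, 12 animals or pools in all. One heart source was a pool of 3 animals and was counted as 1 library. The tissues were whole organs, so signal from fewer cells of a type and less signal per cell cannot be told apart.

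The urea cycle turns ammonia, which is toxic, into urea for excretion, and in mammals the complete cycle runs in the hepatocytes of the liver. Cps1 encodes carbamoyl phosphate synthetase 1, the mitochondrial enzyme that fixes ammonia and controls entry into the cycle. Ass1 encodes argininosuccinate synthase, which joins citrulline to aspartate in the cytosol. Many other tissues also use it to make arginine. Arg1 encodes the liver form of arginase, which splits arginine into urea and ornithine and so closes the cycle. H3K4me3 is concentrated at active promoters, H3K27ac at active promoters and enhancers, and H3K4me1 at enhancers and along the flanks of promoters.

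The value compared between tissues was the number of bases inside the window that were covered by peaks of a list. The fold given for a peak is the authors' own deposited enrichment over background and is used only to describe and rank peaks. Where folds of several lists stand side by side they are descriptions, since lists were called separately, and they were not tested or read as levels. Read depth was unknown. The mouse lists held between 17431 and 129914 peaks. Liver lists held 17431 to 19301 H3K4me3 peaks, 56871 to 63479 H3K27ac peaks and 86486 to 113889 H3K4me1 peaks. The highest H3K4me1 number was that of animal 85924, against 86486 to 92496 in the other liver animals. Heart lists varied more, and the heart H3K4me1 pool had 20521 peaks against 129914 in animal 33017. The list of 33017 carries a tag that the labels do not explain and that might refer to its read number, so its depth may have been set in another way. Gene starts, exons and the remaining urea cycle genes were not analysed here, so no peak is called a promoter peak.

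The library labelled heart H3K4me3 of animal 6837 stood apart from the other heart H3K4me3 libraries. Its mean Jaccard index (shared over combined bases) was 0.550 with the 4 liver H3K4me3 lists and 0.489 with the other 5 heart H3K4me3 lists. The single indices overlapped, at 0.528 to 0.562 with liver and 0.422 to 0.539 with heart. The index is also limited by unequal list sizes, which was not adjusted for. This list covered 36.3 Mb, the liver H3K4me3 lists 22.6 to 25.6 Mb and the other heart H3K4me3 lists 16.0 to 35.6 Mb. By mean index, no other mouse list of the 29 was closer to the other tissue. Of its 29226 peaks, 12324 (42.2%) overlapped no peak of another heart H3K4me3 list. Of those 12324 peaks, 99.6% overlapped a liver H3K27ac peak, 96.1% a liver H3K4me1 peak and 33.5% a heart H3K27ac peak. In the other 5 heart H3K4me3 lists, between 2.99% and 38.8% of the peaks held by 1 list alone overlapped a liver H3K27ac peak. The ranges were 4.14% to 64.1% for a liver H3K4me1 peak and 5.65% to 73.3% for a heart H3K27ac peak. On heart H3K27ac the list of 6837 thus lay within the range of the others. The H3K27ac library of the same animal was closer to the heart, with a mean Jaccard index of 0.519 to the other heart H3K27ac lists and 0.242 to the liver H3K27ac lists. The heart H3K4me3 coverage, its tests and region counts are therefore given with and without the library labelled heart H3K4me3 of animal 6837.

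**Figure D1:**
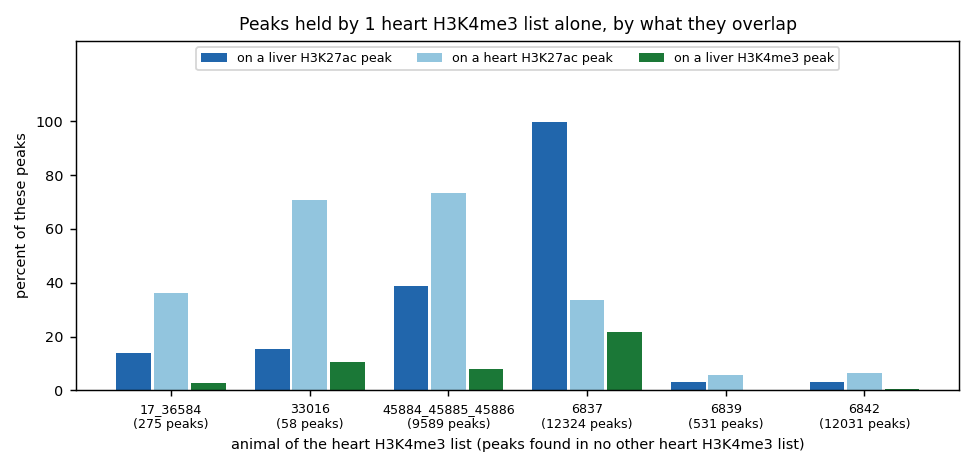
Percent of the peaks held by 1 heart H3K4me3 list alone (no overlap with another heart H3K4me3 list) that overlap a peak of any liver H3K27ac, heart H3K27ac or liver H3K4me3 list. Bars are single lists named by animal, with the number of such peaks below, and the list of animal 6837 reaches 99.6% on liver H3K27ac against at most 38.8% in the other lists.

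All 3 windows carried broad acetylation in liver and little or none in heart. Liver minus heart H3K27ac coverage was 13216 bases at Cps1, 14828 bases at Ass1 and 9776 bases at Arg1. Each of these passed the test at an adjusted p below 0.05, and every liver library lay above every heart library. Coverage by H3K4me3 and H3K4me1 was also larger on average in liver at each gene, but none of those 6 differences passed the test. Thus 3 of 9 comparisons were called, all of them for H3K27ac. For Arg1 H3K4me3 and for H3K4me1 at all 3 genes, every liver library also lay above every heart library. Their exact permutation p was the smallest the library numbers allow, yet the adjusted exact permutation p was 0.0615 to 0.0753. With 0 windows of these marks passing at any of the widths, even the smallest exact permutation p was not enough for a call on unscaled coverage. Windows of both marks did pass when coverage was scaled by the bases of each list, as given below. The contrast between marks is therefore not read as particular to acetylation.

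The background to these calls was high for H3K27ac. Among all consecutive windows of the same width with a peak in at least 2 libraries, 25.1% of the 12080 windows as wide as that of Cps1 were called higher in liver. The share was 24.3% of 19154 windows at the width of Ass1 and 23.5% of 34632 windows at the width of Arg1. A further 22.8%, 21.2% and 19.1% of the windows of Cps1, Ass1 and Arg1 width were called higher in heart. For H3K4me3 and H3K4me1 the share was 0% at each width, in either direction. Windows with an unadjusted exact permutation p under 0.05 were also counted, in either direction. For H3K4me3 they were 1688 of 9723, 2437 of 13268 and 3509 of 18014 windows of Cps1, Ass1 and Arg1 width. For H3K4me1 they were 3681 of 13713, 6516 of 22595 and 13183 of 43023, in the same order. Without the library labelled 6837 the H3K4me3 counts were 2435 of 9439, 3383 of 12786 and 4664 of 17273. Again 0 windows passed after adjustment. A call in these windows was thus a frequent outcome for acetylation and did not set the urea cycle genes apart. The size of the difference was less frequent. A liver excess at least as large was found in 4.44%, 1.68% and 1.33% of the H3K27ac windows of Cps1, Ass1 and Arg1 width.

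**Figure D2:**
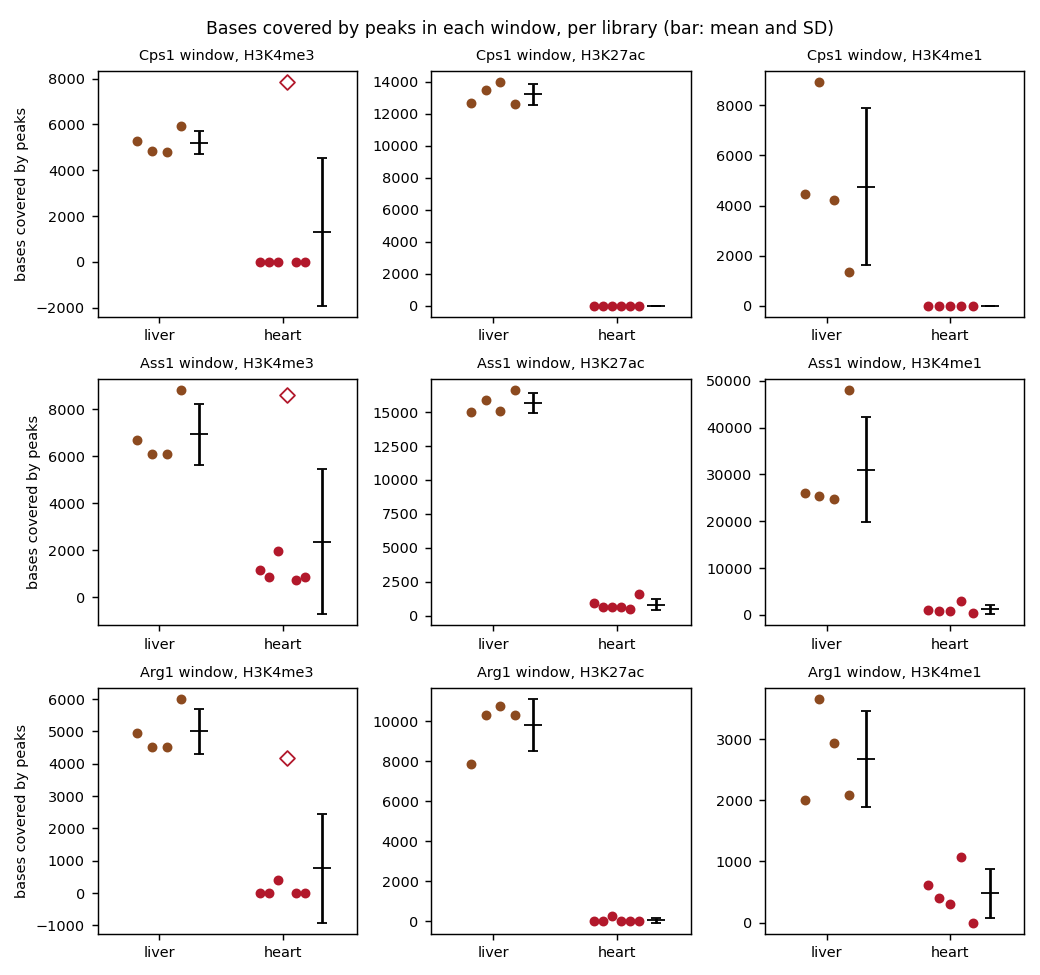
Bases covered by peaks (y axis) in each gene window and mark, with 1 point per library, liver on the left and heart on the right, and the mean with its SD as a bar. The open diamond is the library labelled heart H3K4me3 of animal 6837, which reaches 7860, 8595 and 4163 bases in the Cps1, Ass1 and Arg1 windows while the other heart H3K4me3 points lie at or below 1969 bases.

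At Cps1, no heart H3K27ac or H3K4me1 list had a peak anywhere in the window, and neither did any heart H3K4me3 list except that labelled 6837. In liver, acetylation lay mainly in a pair of blocks in the first 20 kb of the window, and liver H3K4me3 lay mainly over the second block.

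Cps1 H3K27ac covered 12699, 13520, 14010 and 12636 bases in liver animals 85920, 85921, 85923 and 85924. All 6 heart libraries were at 0 bases. The groups did not overlap. The liver mean was 13216 ± 665 bases (SD, n = 4), and the exact permutation p was 0.00476, the smallest that 4 against 6 libraries allow, with an adjusted p of 0.0167. Every liver library lay above every heart library in 22.3% of the windows of this width.

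The regions behind this coverage were found by merging peaks of a mark over all mouse libraries. The Cps1 window had 5 H3K27ac regions called in at least 2 libraries of a tissue, of which 4 were present in every liver list and no heart list. That pattern held in 12.3% of all H3K27ac regions of the genome. The strongest was chr1:67111516-67118347, where the highest peak of each liver library had a fold of 28.9 ± 4.40 (SD, n = 4). The second was chr1:67121644-67128099, with a fold of 15.2 ± 3.10. A narrow region between them, chr1:67118468-67118969, had a fold of 6.15 ± 1.49. The widest acetylated peak was 3122, 5554, 5095 and 4947 bases long in the 4 liver animals in the order above. In animals 85920, 85923 and 85924 it lay in the first block, and in 85921 in the second.

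Cps1 H3K4me3 covered 5289, 4854, 4790 and 5911 bases in liver animals 85920, 85921, 85923 and 85924. Of the 6 heart libraries, 5 were at 0 bases and that labelled 6837 was at 7860 bases, above every liver library. The groups overlapped through that 1 library. The liver mean was 5211 ± 517 bases (SD, n = 4) and the heart mean was 1310 ± 3209 bases (SD, n = 6), with an exact permutation p of 0.0476 and an adjusted p of 0.274. Without the library labelled 6837 the heart mean was 0, the difference 5211 bases and the adjusted exact permutation p 0.0770. Every liver library was then above every heart library, as in 9.29% of windows of this width; with 6837 included the share was 1.77%.

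The liver H3K4me3 signal at Cps1 was 1 main region, chr1:67122670-67128146, in all 4 liver lists. Its highest peak was 3246 bases wide with a fold of 50.1 in animal 85920 and 3477 bases with a fold of 27.1 in 85921. It was 3824 bases with a fold of 21.7 in 85923 and 5146 bases with a fold of 42.3 in 85924. By fold these peaks were ordinary, since 36.7% to 56.0% of the H3K4me3 peaks of the same list had a fold as high. By width they were less common, since 0.780% to 4.07% of the peaks of the same list were as wide. The region counted as present in every liver and no heart list only when the library labelled 6837 was disregarded. The share of all H3K4me3 regions with that pattern was 0.857%, or 5.45% with 6837 disregarded.

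The peaks of the library labelled 6837 in the Cps1 window followed the liver acetylation. It had 6 peaks there with folds of 3.56 to 10.6. Of the 7860 bases they covered, 100% lay in a liver H3K27ac peak and 43.9% in a liver H3K4me3 peak. Its highest peak, chr1:67113553-67116653, lay in the first acetylated block, where liver H3K4me3 was called in 2 of 4 libraries with folds of 4.66 and 4.73. The heart H3K27ac list of the same animal had 0 bases in this window.

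Cps1 H3K4me1 covered 4464, 8947, 4232 and 1357 bases in liver animals 85920, 85921, 85923 and 85924 and 0 bases in all 5 heart libraries. Animal 85921 was highest and 85924 lowest, and the groups did not overlap. The liver mean was 4750 ± 3135 bases (SD, n = 4), with an exact permutation p of 0.00794, the smallest for 4 against 5 libraries, and an adjusted p of 0.0753. Every liver library lay above every heart library in 14.2% of windows of this width, and 13.1% of them had a liver excess as large. With each H3K4me1 list cut to its 20521 strongest peaks, the number in the smallest list, the liver mean was 185 bases, the groups overlapped and the exact permutation p was 0.444. The names of all 4 liver and 2 of the heart H3K4me1 libraries begin with "do", a prefix that the labels do not explain. Among these the difference was again 4750 bases, with an exact permutation p of 0.2.

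H3K4me1 at Cps1 was split into 4 to 15 peaks per liver library, and H3K27ac into 7 to 14. The midpoint of its covered bases lay 20.1 to 24.9 kb into the window in the 4 liver libraries, against 8.14 to 8.71 kb for H3K27ac and 15.1 to 15.4 kb for H3K4me3. Of its 7 regions, 3 were in every liver list and no heart list, a pattern of 9.84% of all H3K4me1 regions. The region with the highest fold was chr1:67114360-67115824, inside the first acetylated block, at 7.93 ± 2.51 (SD, n = 4). The other regions in every liver list, chr1:67132152-67133760 with 5.85 ± 0.58 and chr1:67129804-67130858 with 5.54 ± 0.73, lay beyond both acetylated blocks.

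**Figure D3:**
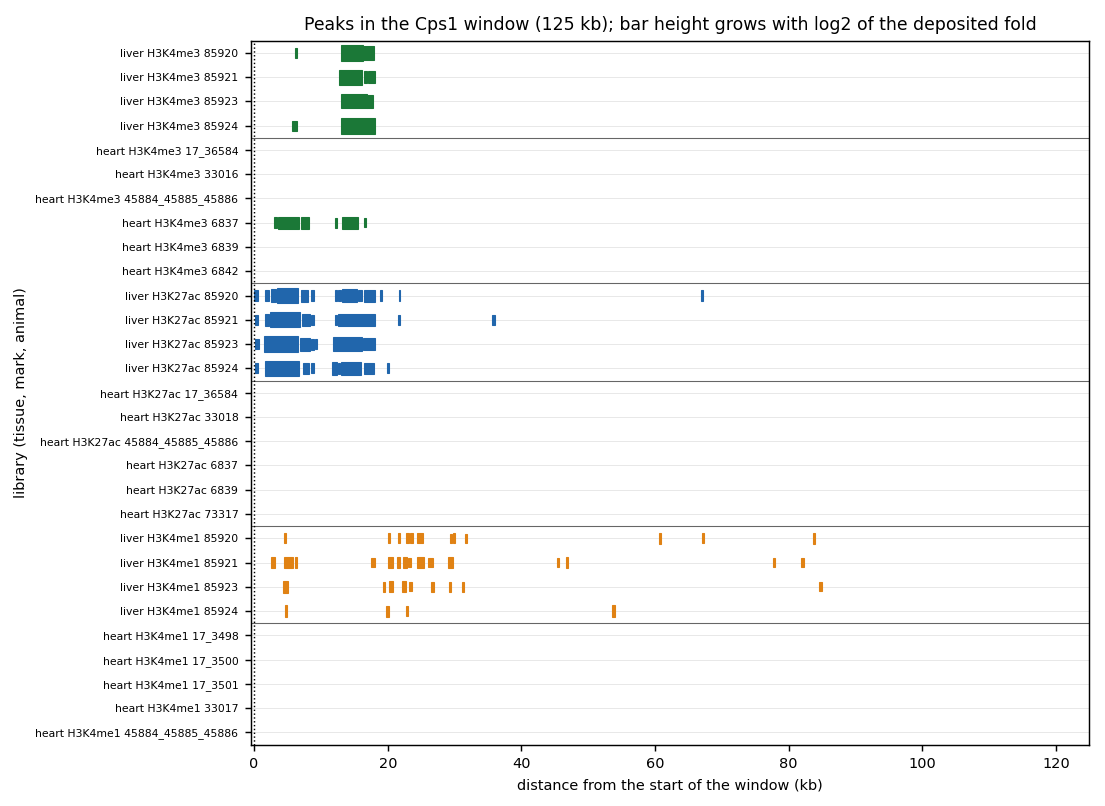
Peaks in the Cps1 window, with distance from its start in kb on the x axis and 1 row per library. Bars are peaks, taller with a higher deposited fold, and liver H3K27ac forms a pair of blocks of which the second also carries liver H3K4me3, while all heart rows are empty except that of H3K4me3 animal 6837.

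At Ass1 every heart H3K4me3 and H3K27ac library had a peak about 10 kb into the window, where liver was marked too. Liver had a further block at the left edge of the window with an acetylation fold among the highest of each list, and long stretches of H3K4me1 that heart lacked.

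Ass1 H3K27ac covered 15028, 15869, 15103 and 16614 bases in liver animals 85920, 85921, 85923 and 85924. The heart libraries had 964 bases in 17_36584, 618 in 33018, 622 in the pool, 622 in 6837, 504 in 6839 and 1626 in 73317. Animal 73317 was the highest heart library and all 6 lay far under the liver. The means were 15654 ± 745 bases in liver (SD, n = 4) and 826 ± 422 bases in heart (SD, n = 6), with an exact permutation p of 0.00476 and an adjusted p of 0.0162. Every liver library lay above every heart library in 22.3% of windows of this width.

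The strongest acetylated region was chr2:31456942-31464639, which began before the window. Its peak had a fold of 96.5, 104, 111 and 110 and a width of 7586, 7593, 7657 and 7684 bases in liver animals 85920, 85921, 85923 and 85924. By fold these peaks ranked 9, 2, 3 and 3 among all H3K27ac peaks of their lists, which held 63479, 61341, 59902 and 56871 peaks. Their summits lay at positions 31460205, 31460187, 31460178 and 31460147, close to one another in all 4 animals. In heart only animal 73317 had a peak in the region, with a fold of 4.55.

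A neighbouring region, chr2:31464727-31466917, was in every liver list with a fold of 42.4 ± 6.40 (SD, n = 4) and in no heart list. The region shared by the tissues was chr2:31470268-31475345. Liver folds there were 36.8 ± 7.94 (SD, n = 4), and heart folds ran from 4.40 to 11.2 in all 6 libraries. The heart peaks were narrow, 224 to 964 bases over all heart H3K27ac peaks of the window, while the liver peak of this region was 3786 to 4929 bases wide. Of 9 H3K27ac regions at Ass1, 6 were in every liver list and 3 of those in no heart list, against 12.3% of all H3K27ac regions.

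Ass1 H3K4me3 covered 6706, 6091, 6106 and 8808 bases in liver animals 85920, 85921, 85923 and 85924. Heart values were 1164 bases in 17_36584, 870 in 33016, 1969 in the pool, 8595 in the library labelled 6837, 748 in 6839 and 844 in 6842. The groups overlapped only through 6837, which exceeded 3 of the 4 liver libraries. The means were 6928 ± 1286 (SD, n = 4) and 2365 ± 3085 (SD, n = 6), with an exact permutation p of 0.0429 and an adjusted p of 0.255. Without 6837 the heart mean was 1119 bases, the difference 5809 bases and the adjusted exact permutation p 0.0719. Separation of all liver from all heart libraries occurred in 2.27% of windows of this width, and in 10% when 6837 was left out.

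Of 4 H3K4me3 regions at Ass1, 2 were in every liver list, a liver-biased and a shared one. The first, chr2:31458599-31462518, had folds of 151, 139, 120 and 171 in the 4 liver animals and was called in 2 of 6 heart libraries, the pool with a fold of 8.72 and that labelled 6837 with a fold of 22.2. The second, chr2:31469102-31475376, was called in all 10 libraries, with liver folds of 90.2 ± 30.0 (SD, n = 4) and heart folds of 14.1 to 35.4. In the 5 heart libraries other than 6837 the highest peak was 628 to 1628 bases wide. In liver the widest peak was 3876 to 5249 bases, which placed it among the widest 0.387% to 2.33% of the list. Another region was called in 3 of 4 liver lists, with folds of 4.98 to 5.91. In heart only the library labelled 6837 had it, with a fold of 13.3. The last was called in 2 of 4 liver lists and no heart list. No H3K4me3 region at Ass1 was in every liver and no heart list, with or without 6837.

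Of the 8595 bases covered by the library labelled 6837 at Ass1, 98.6% lay in a liver H3K27ac peak, 59.4% in a liver H3K4me3 peak and 21.6% in a peak of another heart H3K4me3 list. The share in a heart H3K27ac peak was 21.7%. The midpoint of its covered bases was 4.37 kb into the window, while in the other 5 heart libraries it was between 10.4 and 10.7 kb.

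Ass1 H3K4me1 covered 25963, 25470, 24833 and 47973 bases in liver animals 85920, 85921, 85923 and 85924. Heart values were 1103 bases in 17_3498, 734 in 17_3500, 808 in 17_3501, 2886 in 33017 and 346 in the pool. Animal 85924 covered 73.8% of the window, while the other 3 liver libraries covered 38.2% to 39.9%. The means were 31060 ± 11285 bases in liver (SD, n = 4) and 1175 ± 994 bases in heart (SD, n = 5), with an exact permutation p of 0.00794 and an adjusted p of 0.0660. Without 85924 the difference was 24247 bases. Every liver library exceeded every heart library in 15.1% of windows of this width. A liver excess as large as at Ass1 was less common, found in 0.0177% of 22595 windows. That share counts the Ass1 window itself and consecutive windows that overlap it. It includes animal 85924 and was not computed without that animal. With each list cut to its 20521 strongest peaks the difference was 12595 bases, and every liver library was again above every heart library. Among libraries with a "do" name it was 29444 bases, with an exact permutation p of 0.0667, the smallest for 4 against 2 libraries. Animal 85924 also stood apart over the genome, with a mean Jaccard index of 0.371 to the other liver H3K4me1 lists against 0.488 to 0.504 for the rest. Its H3K4me1 list was also the largest in liver, with 113889 peaks against 86486 to 92496. Its part in the result was not tested beyond leaving it out.

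The stretch marked by H3K4me1 reached 44.1 to 59.2 kb into the window in the 4 liver libraries and no further than 11.8 kb in heart. Of 12 H3K4me1 regions, 8 were in every liver list and 6 of those in no heart list, against 9.84% of all H3K4me1 regions with that pattern. The highest fold was at chr2:31459433-31464535, 13.2 ± 9.24 in liver (SD, n = 4), followed by chr2:31468423-31478287 with 13.0 ± 8.02. Both means rested on animal 85924, with folds of 26.7 and 24.7, and without it they were 8.75 and 9.09, in the opposite order. Both regions, which overlap the main H3K4me3 regions, were also called in 4 of 5 heart libraries, with folds of 3.87 to 9.47 and 3.34 to 5.91. The third, chr2:31464902-31466413, had a liver fold of 11.9 ± 7.08, or 8.56 without 85924, and no heart peak.

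**Figure D4:**
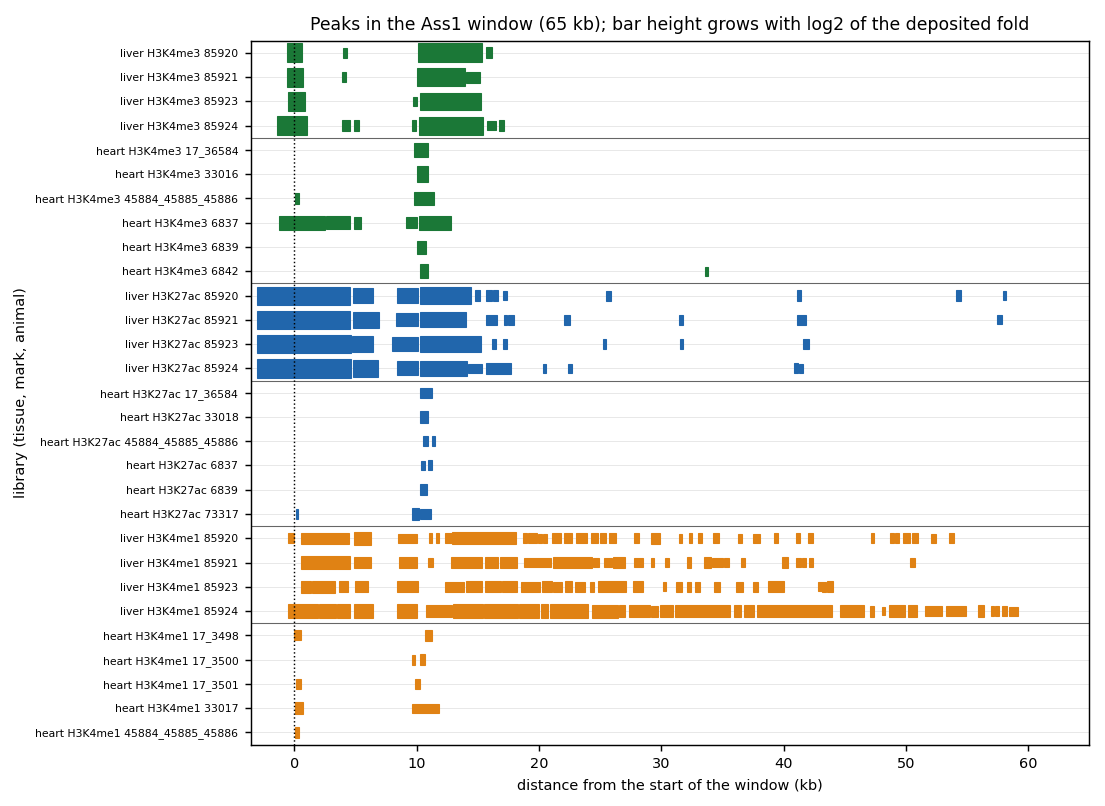
Peaks in the Ass1 window, with distance from its start in kb on the x axis (dotted line at 0, peaks drawn whole) and 1 row per library. Bars are peaks, taller with a higher deposited fold; all heart H3K4me3 and H3K27ac rows have a peak about 10 kb in, whereas the acetylated block across the left edge is in all 4 liver rows and the H3K4me1 stretch is longest in liver animal 85924.

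Arg1 carried 1 compact block in liver, marked by H3K4me3 and H3K27ac together. Heart had almost no peaks of either mark, apart from the library labelled 6837 and short peaks in the pool. A short H3K4me1 peak was present in most heart libraries.

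Arg1 H3K27ac covered 7889, 10305, 10758 and 10330 bases in liver animals 85920, 85921, 85923 and 85924. The pooled heart library had 268 bases and the other 5 heart libraries had 0. Animal 85920 was the lowest liver library, since it lacked the short peaks that the other 3 had in the first 10 kb of the window. The means were 9821 ± 1304 bases (SD, n = 4) and 44.7 ± 109 bases (SD, n = 6), with an exact permutation p of 0.00476 and an adjusted p of 0.0163. Every liver library lay above every heart library in 21.9% of windows of this width.

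The only H3K27ac region of the 7 at Arg1 found in every liver list was chr10:24920497-24928692. Its main peak was 7539 bases wide with a fold of 39.7 in animal 85920 and 7183 bases with a fold of 22.0 in 85921. It was 7555 bases with a fold of 27.4 in 85923 and 7528 bases with a fold of 31.8 in 85924. These were among the widest 0.406% to 0.752% of the H3K27ac peaks of their lists. The pool had the only heart peak in the region, 268 bases wide with a fold of 5.66, so no H3K27ac region at Arg1 was in every liver and no heart list.

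Arg1 H3K4me3 covered 4963, 4517, 4522 and 6007 bases in liver animals 85920, 85921, 85923 and 85924. In heart the library labelled 6837 had 4163 bases, the pool 403 and the other 4 libraries 0. Even 6837 lay under every liver library, so the groups did not overlap. The means were 5002 ± 702 bases (SD, n = 4) and 761 ± 1674 bases (SD, n = 6), with an exact permutation p of 0.00476 and an adjusted p of 0.0749. Without 6837 the heart mean was 80.6 bases, the difference 4922 bases and the adjusted exact permutation p 0.0672. Such separation was found in 3.28% of windows of this width, and in 10.9% without 6837. A liver excess as large as that of Arg1 was found in 0.239% of 18014 H3K4me3 windows, against 0.377% for Ass1 and 1.12% for Cps1 at their own widths. Without 6837 these shares were 0.388%, 0.461% and 1.15%.

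The single H3K4me3 region was chr10:24923124-24928541, with liver folds of 61.0, 51.0, 45.1 and 78.0 and widths of 4627, 4106, 4522 and 5418 bases in the 4 animals. The width placed it among the widest 0.564% to 1.84% of peaks of each list. In heart it was called with a fold of 11.3 in the library labelled 6837 and 5.99 in the pool. Of the 4163 bases of the library labelled 6837, 100% lay in liver H3K27ac peaks and 100% in liver H3K4me3 peaks.

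Arg1 H3K4me1 covered 2009, 3662, 2946 and 2081 bases in liver animals 85920, 85921, 85923 and 85924. Heart values were 611 bases in 17_3498, 405 in 17_3500, 299 in 17_3501, 1070 in 33017 and 0 in the pool. The lowest liver value was above the highest heart value. The means were 2675 ± 784 (SD, n = 4) and 477 ± 398 (SD, n = 5), with an exact permutation p of 0.00794 and an adjusted p of 0.0615. Every liver library was above every heart library in 15.5% of windows of this width, and 10.2% of them had an excess as large. With each list cut to its 20521 strongest peaks both tissues had 0 bases here. Among libraries with a "do" name the difference was 2140 bases, with an exact permutation p of 0.0667.

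Of 4 H3K4me1 regions at Arg1, 1 was in every liver list and no heart list, against 9.84% of all H3K4me1 regions with that pattern. It was chr10:24921475-24925111, with a liver fold of 5.68 ± 0.85 (SD, n = 4). The heart peaks lay elsewhere. The region chr10:24927032-24928039, picked out after its values were seen, was called in 4 of 5 heart libraries with folds of 4.26 to 5.46 and in 2 of 4 liver libraries with folds of 5.31 and 6.14.

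**Figure D5:**
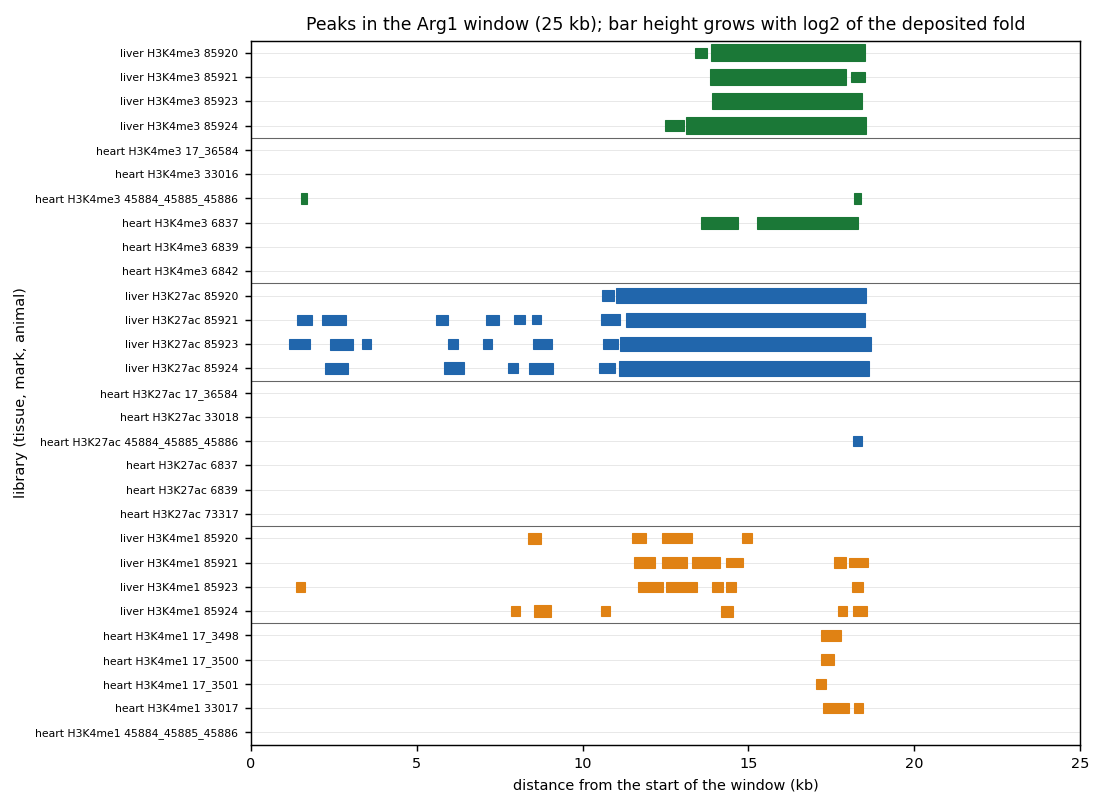
Peaks in the Arg1 window, with distance from its start in kb on the x axis and 1 row per library. Bars are peaks, taller with a higher deposited fold; the 4 liver H3K4me3 rows and the 4 liver H3K27ac rows share a block that ends 18.4 to 18.7 kb into the window, and most heart rows are empty.

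Most liver H3K4me3 lay inside acetylated sequence of the same animal. The share of its bases was 94.3 ± 5.94% at Cps1 (SD, n = 4), lowest in 85924 at 88.1%. It was 91.4 ± 8.85% at Ass1, lowest in 85921 at 79.4%, and between 99.96% and 100% at Arg1. Acetylation extended beyond H3K4me3, which covered 37.1 ± 3.16% of H3K27ac bases at Cps1, 40.5 ± 8.62% at Ass1 and 51.7 ± 10.4% at Arg1. The share of H3K4me1 bases that were acetylated was 28.0 ± 14.3% at Cps1, 40.02 ± 5.87% at Ass1 and 93.9 ± 8.32% at Arg1. Its share under H3K4me3 was 1.36 ± 2.73%, 15.0 ± 2.39% and 34.8 ± 15.0%. These shares come from the same 4 animals and from windows of different width, and the differences between genes were not tested. The same shares over the whole genome were not analysed here, so they are not read as a trait of these genes.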

How the data were processed

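Per the labels' protocols, tissue was crosslinked with formaldehyde (liver perfused with buffer, clots removed from heart) and immunoprecipitated with 1 antibody per mark. Peaks were called with MACS2, per the submitters' processing notes; the sources used here do not give its version, the aligner or read filters. One list was deposited per library against a named input. Each liver list had the input of its own animal. In heart only the pool and animal 17_3498 had this, and 5 input libraries served all heart lists. Matching of the input therefore cannot be told apart from tissue. The fold of a peak was deposited as a ratio on a linear scale, and the deposited −log10 q-value is the caller's own, with a lowest value of 1.30. The build is GRCm38, per the file headers and names. Positions are counted from 1.

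Bases covered by peaks were compared between tissues by a two-sided exact permutation test of the mean difference. P-values were Benjamini-Hochberg adjusted over all consecutive windows of the same width with a peak in at least 2 libraries, plus the gene window, and called at an adjusted p below 0.05. Regions were peaks of a mark merged over all mouse libraries and kept if called in at least 2 libraries of 1 tissue. Those named with coordinates were in every library of a tissue and among the 3 with the highest mean fold per window and mark. The text marks 1 exception at Arg1. Also outside this rule is chr1:67113553-67116653 at Cps1, named as the highest peak there of the library labelled 6837. The script was tested on simulated data. Python 3.11.15, NumPy 2.4.6, pandas 2.3.3, SciPy 1.17.1 and Matplotlib 3.10.9 were used. Replicates were animals or a pool. No 2 of 126 pairs of lists of 1 mark were duplicates (highest Jaccard index 0.830). Genes, windows and tests were chosen with earlier results of these data known. A check of tissue markers needed a mouse annotation and was not analysed here.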

Additional observations from a re-analysis of the deposited data

Results flagged for a closer look

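In 16 combinations of gene, mark and tissue with differing values in 4 to 6 libraries, 6 had 1 library whose gap to the nearest other exceeded Dixon's critical value, which chance gives in about 1 group in 20. For Cps1 heart H3K4me3 and Arg1 heart H3K27ac the other 5 libraries were all at 0, so any value above 0 would exceed it and that rate does not apply. Of these, 3 belong to the library labelled heart H3K4me3 of animal 6837, with 7860 bases at Cps1, 8595 at Ass1 and 4163 at Arg1, where the other 5 heart libraries had at most 0, 1969 and 403 bases. Liver H3K4me1 of animal 85924 covered 47973 bases at Ass1 against 24833 to 25963 in the other 3 animals. Liver H3K27ac of animal 85920 covered 7889 bases at Arg1 against 10305 to 10758 in the others. The pooled heart H3K27ac library had 268 bases at Arg1, a single peak, where the other 5 libraries had 0.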

How the results depend on the processing

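The 3 H3K27ac calls kept their direction and their side of the threshold under each alternative run: a −log10 q of at least 4, equal numbers of peaks, scaling by bases covered, counting peaks, assigning peaks by summit, windows widened by 10 kb, and leaving out each library. All H3K27ac libraries have a "do" name, so restricting to such names tests nothing there. With each library scaled by the bases its list covered (bases per Mb of peaks), 5 further differences passed: 68.7 for Cps1 H3K4me1 (adjusted exact permutation p = 0.0401), 204 and 418 for Ass1 H3K4me3 and H3K4me1 (0.0462 and 0.0414), and 182 and 31.9 for Arg1 H3K4me3 and H3K4me1 (0.0432 and 0.0444). Also without the library labelled heart H3K4me3 of animal 6837, a choice made after seeing the data, the scaled H3K4me3 differences were 212, 236 and 201 at Cps1, Ass1 and Arg1 (adjusted exact permutation p = 0.0357, 0.0382 and 0.0408). Under that scaling, H3K4me3 windows called higher in liver went from 0 to 550 of 9723, 763 of 13268 and 1205 of 18014. These counts are in order of Cps1, Ass1 and Arg1 width, and those higher in heart were 504, 606 and 781. For H3K4me1 the liver counts were 2124 of 13713, 3465 of 22595 and 6391 of 43023, and the heart counts 589, 868 and 1298. Also without 6837, the liver counts for H3K4me3 were 1143 of 9439, 1496 of 12786 and 2021 of 17273. The heart counts were then 958, 1163 and 1336. The cause of the rise was not tested. Of 12080, 19154 and 34632 windows, counting peaks took those called higher in liver for H3K27ac from 3028, 4647 and 8142 to 1822, 2738 and 4951. With equal numbers of peaks the H3K4me1 difference was 185 bases at Cps1 and 0 at Arg1.

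Leaving out 1 library moved the differences from 3639 to 5211 bases (Cps1 H3K4me3), 12952 to 13410 (Cps1 H3K27ac), 3351 to 5881 (Cps1 H3K4me1), 3936 to 5809 (Ass1 H3K4me3), 14507 to 15036 (Ass1 H3K27ac), 24247 to 31960 (Ass1 H3K4me1), 3906 to 4922 (Arg1 H3K4me3), 9463 to 10420 (Arg1 H3K27ac) and 1868 to 2419 (Arg1 H3K4me1). The 3 H3K27ac adjusted exact permutation p-values then lay between 0.0229 and 0.0381. Disregarding the library labelled 6837, an alternative added after seeing the data, raised the Cps1 H3K4me3 regions in every liver and no heart list from 0 to 1.

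No paired analysis was possible because the liver and the heart libraries came from different animals. Narrowing the windows to the gene bodies was not run, as no mouse annotation was used here. Read depth is unknown, so a missing peak shows no call at that depth rather than absence of the mark. All liver libraries have names from do3128 to do3169. Heart libraries with a "do" name run from do4245 to do17728, and 3 heart H3K4me1 libraries have a "vl" name. The names of the tissues thus do not overlap for any mark. Tissue cannot be told apart from whatever the names reflect, also among "do" names alone.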
